A study of Arabidopsis thaliana with 8 samples.

Results

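Lysine 27 of histone H3 can carry acetylation (H3K27ac) or trimethylation (H3K27me3), and the genes under each mark were compared in the non-hair cells that form part of the root epidermis in Arabidopsis thaliana. Of 27444 nuclear protein-coding genes, 20903 had at least 200 bp covered by called regions of H3K27ac, of H3K27me3 or of both. H3K27ac reached that length on 15531 genes, or 56.6%, and H3K27me3 on 11490, or 41.9%. The genes fell into 9413 with H3K27ac only (34.3%), 5372 with H3K27me3 only (19.6%), 6118 with both marks (22.3%) and 6541 with neither (23.8%).

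Acetylation of lysine 27 is placed by histone acetyltransferases of the p300/CBP type and is a mark of the 5' part of transcribed genes in plants. Trimethylation of the same residue is placed by Polycomb repressive complex 2 and marks genes held silent, among them many regulators of development. A lysine side chain can carry the acetyl or the methyl groups and not both at once, so on 1 histone tail the marks exclude each other, while a nucleosome holds a pair of H3 tails and a tissue or cell population holds many copies of each gene.

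Every library came from nuclei of 10-day-old transgenic Col-0 plants, which carried a biotin-accepting nuclear envelope fusion (NTF) under the GLABRA2 promoter and the biotin ligase BirA under the ACT2 promoter. Nuclei were purified by affinity to the tag (INTACT) from 3 g of root segments of 1.25 cm taken from the fully differentiated zone, so the cell type was set by where the GLABRA2 promoter was active and by how pure the capture was. Chromatin immunoprecipitation with sequencing was done with 1 library per target, for H3K27ac, H3K27me3, H3K4me3, H3K4me1, the variant histone H2A.Z and H3 irrespective of modification. The samples included an input made for H3K27me3 alone, so a difference in preparation cannot be told apart from a difference between the marks. With 1 library per target there was no replicate check and no test, so every value describes these libraries. Intervals printed here are exact 95% binomial intervals over genes and cover counting error only.

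Values are given in base pairs under regions that the authors had called. The sources used here give neither sequencing depth nor region scores, and a deeper library can give more and longer regions. The smallest called region measured 179 bp for H3K27ac and 241 bp for H3K27me3, so at a threshold of 200 bp a lone smallest H3K27me3 region marked a gene and a lone smallest H3K27ac region did not. This bears on the classes: 2432 of the 6118 genes with both marks (39.8%) held exactly 241 bp of H3K27me3, and 1199 of the 5372 genes with H3K27me3 only (22.3%) held exactly 179 bp of H3K27ac. Just inside and outside the threshold, 46 genes had 200 to 219 bp of H3K27ac and 74 had 180 to 199 bp, and for H3K27me3 these numbers were 120 and 107. None of the other mark at all was found on 9074 of the 9413 genes with H3K27ac only and on 3879 of the 5372 genes with H3K27me3 only. Regions mapped in bulk also cannot say whether both marks lay on the same chromosome copy, in the same cells or in different cells of the preparation.

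Of 8 genes of the non-hair fate network, 3 had H3K27ac only, 2 had H3K27me3 only, 2 had both marks and 1 had neither. Over all genes the shares were 34.3%, 19.6%, 22.3% and 23.8%, so the list stood near the background. WEREWOLF, listed as MYB66, the MYB protein that promotes the non-hair fate, carried 518 bp under H3K27ac regions and none under H3K27me3. TTG1, the WD40 partner of the MYB and bHLH proteins, had 1017 bp of H3K27ac, and CPC, a small MYB protein that moves to neighbouring cells, had 672 bp. GLABRA2 (GL2), the homeobox gene that acts downstream of WEREWOLF to block hair formation, had both marks, with 412 bp of H3K27ac and 1311 bp of H3K27me3. GL3, a bHLH partner of WEREWOLF, held 309 bp of H3K27ac and 241 bp of H3K27me3, whereas its relative EGL3 held only H3K27me3, 311 bp. MYB23 was called H3K27me3 only by narrow amounts, 241 bp against 179 bp of H3K27ac, and the WRKY gene TTG2 had none of either.

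Of 8 genes of root hair formation, 7 had H3K27me3 only, against 19.6% of all genes, and the eighth, COBL9, listed as SHV2, had both marks, against 22.3%. RHD6, the bHLH protein at the head of the root hair programme, had 1348 bp of H3K27me3 and a lone H3K27ac region of 179 bp. RSL2, RSL4, the expansins EXPA7 and EXPA18 and the cell wall protein PRP3 had no H3K27ac, and RSL1 had 63 bp, at its end, outside its 800 bp of H3K27me3. COBL9, needed for the growth of the hair tip, held 284 bp of H3K27ac beside 1608 bp of H3K27me3. These lists are short and were chosen with earlier results known, so they do not settle the labelled cell type. Among the non-hair genes, GL2 had more H3K27me3 than H3K27ac, and EGL3 and MYB23 had H3K27me3 only.

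Genes with H3K27ac, alone or with H3K27me3, were longer than those with H3K27me3 only. Median gene length was 2366 bp for H3K27ac only (95% interval 2343 to 2396), 1726 bp for H3K27me3 only (1698 to 1763), 2618 bp for both marks (2586 to 2648) and 1255 bp for neither mark, against 2078 bp for all protein-coding genes. The median number of exons was 5, 3, 5 and 2 in the same order, and genes with 1 exon made up 13.4% of the H3K27ac only class and 23.2% of the H3K27me3 only class. The share of genes with both marks was 0.485% under 500 bp, 21.3% from 1500 to under 2000 bp and 38.6% at 6000 bp and over. H3K27me3 only was most frequent in genes of 1000 to under 1500 bp, at 29.5%, and took 9.31% of the longest genes. A fixed length of 200 bp is easier to reach in a longer gene, and its part in these shares was not tested.

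**Figure D1:**
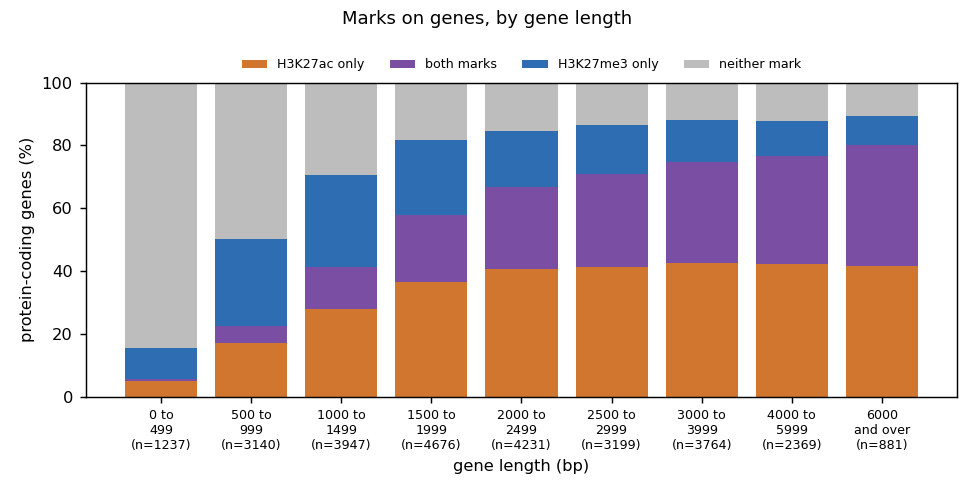
Share of protein-coding genes in each class (bars, % of genes) by gene length in bp, with the number of genes in each band below it. The share with both marks was 0.485% in the shortest band and 38.6% in the longest, while H3K27me3 only was at 29.5% in genes of 1000 to under 1500 bp and at 9.31% in the longest.

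H3K27me3 took a larger part of the genes it marked alone. In genes with H3K27me3 only, the mark covered a median of 38.3% of the gene, or 552 bp. In genes with H3K27ac only, that mark covered 23% of the gene, or 526 bp. Genes with both marks had 20.4% of their length under H3K27ac and 13.7% under H3K27me3, with medians of 531 and 318 bp. H3K27ac thus had about the same extent with and without H3K27me3, whereas H3K27me3 was shorter where H3K27ac was present. More H3K27me3 than H3K27ac was found on 1954 of the 6118 genes with both marks, or 31.9%.

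Across all genes, H3K27me3 was on 39.4% of genes with H3K27ac (interval 38.6 to 40.2) and on 45.1% of genes without it (44.2 to 46). At similar length the gap was wider: from 1500 to under 2500 bp, H3K27me3 was on 38.2% of genes with H3K27ac and on 55.2% of genes without. From 1000 to under 1500 bp the shares were 32.1% and 50.1%, and at 4000 bp and over they were 45.8% and 47.2%, with intervals that overlap. Over all lengths, both shares depended on the regions used. Without regions of the smallest size, H3K27me3 was on 19.4% of genes with H3K27ac and on 33.3% of genes without. The shares were 9.4% and 20.6% when 500 bp were needed, and 4.07% and 13% with only regions of at least 500 bp. With 1 bp marking a gene they were 43% and 49.4%.

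The 10 genes with the longest H3K27ac cover in the H3K27ac only class ranged from 2135 to 3045 bp. HAF2, a TAF1-type subunit of general transcription factor TFIID with a histone acetyltransferase domain (chr3:6567021-6575613), was at the top of this range, in 13 separate stretches spread from 175 bp after its start to its end. A kinesin-like microtubule motor, AT2G37420, followed with 2817 bp, or 54.7% of the gene. The chromatin remodeler chr31 had 2772 bp, the helicase gene MAA3 had 2421 bp and ACLB-2, a subunit of the ATP citrate lyase that supplies cytosolic acetyl-CoA, had 2310 bp. A receptor-like kinase of the leucine-rich repeat type, AT5G56040, had 2243 bp, which was 58.7% of the gene. All 10 genes at the head of this class had no H3K27me3 base, and their cover ran from 35.4% to 62.5% of the gene. A ranking by base pairs favours long genes.

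The 10 genes with the longest H3K27me3 cover in the H3K27me3 only class ranged from 2975 to 5013 bp. MEE57, a DNA methyltransferase gene related to MET1 (chr4:7915022-7921231), had 5013 bp, or 80.7% of the gene, in 7 stretches. AGAMOUS (AG), the MADS-box gene that specifies stamens and carpels (chr4:10382856-10388539), had 4670 bp, or 82.2%, and no H3K27ac. PKR2, a CHD3-type chromatin remodeler, had 3486 bp. RLM3, a TIR-type resistance gene, had 3403 bp, and the sulphate transporter gene SULTR2;1 had 3318 bp. RPL, a homeobox gene of stem and fruit patterning, was covered over 89.6% of its length, and PTL, a trihelix gene of petal development, over 88.2%. TPS04, a terpene synthase of the leaf volatile pathway, had 3110 bp, and the phosphatase gene BSU1 2975 bp. Of these 10 genes, 4 had no H3K27ac base, 5 had exactly 179 bp and TPS04 had 40 bp.

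Genes with both marks could carry them on the same bases. HAP8, a gene named for a defect of male gametophytes (chr5:22768453-22773021), shared the most: 1480 bp lay under both marks, out of 2195 bp of H3K27ac and 2862 bp of H3K27me3. AT5G56240, named in the annotation as a hapless protein and lying nearby on the same strand, shared 1204 bp. MYB92, a root MYB protein of suberin synthesis, shared 1123 bp, and AGL42, a MADS-box gene of the SOC1 clade, had all of its 1101 bp of H3K27ac inside a single H3K27me3 stretch of 1713 bp. WRKY48, a stress-response regulator, shared 1058 bp. VDAC1, a porin of the outer mitochondrial membrane, shared 912 bp, and SLD1, a sphingolipid desaturase, had all of its 903 bp of H3K27me3 under H3K27ac.

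The sequences of shared stretches are shown for HAP8, MYB92 and AT2G36410, 3 of the 10 genes with the most shared bases, and for FLC, the flowering repressor studied as a model of H3K27me3. Each is the longest stretch of at most 300 bp under both marks that held no untranslated exon base, on the strand of the gene in build TAIR10. The stretches of HAP8 (chr5:22772230-22772496, minus strand), AT2G36410 (chr2:15279382-15279490, plus strand) and FLC (chr5:3176411-3176643, minus strand) lay within introns, and that of MYB92 (chr5:3233597-3233724, plus strand) lay in coding sequence. Capitals mark the telobox AAACCCTA on either strand, a motif bound by TRB proteins that recruit Polycomb repressive complex 2; the letters TAGGGTTT are the same motif on the other strand.
HAP8: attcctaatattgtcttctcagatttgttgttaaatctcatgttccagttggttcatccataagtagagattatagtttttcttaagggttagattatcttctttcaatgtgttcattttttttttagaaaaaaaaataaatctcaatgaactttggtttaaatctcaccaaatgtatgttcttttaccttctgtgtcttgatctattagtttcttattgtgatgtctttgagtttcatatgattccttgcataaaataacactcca
MYB92: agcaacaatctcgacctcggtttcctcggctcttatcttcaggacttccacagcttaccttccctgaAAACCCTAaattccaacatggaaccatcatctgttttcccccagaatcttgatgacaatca
AT2G36410: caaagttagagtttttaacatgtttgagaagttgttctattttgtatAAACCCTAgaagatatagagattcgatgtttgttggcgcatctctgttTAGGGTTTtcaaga
FLC: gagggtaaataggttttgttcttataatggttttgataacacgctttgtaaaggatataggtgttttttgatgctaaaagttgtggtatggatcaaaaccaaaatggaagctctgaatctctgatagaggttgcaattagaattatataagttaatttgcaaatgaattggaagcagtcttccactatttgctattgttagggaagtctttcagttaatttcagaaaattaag
The AT2G36410 stretch held 2 copies and the MYB92 stretch 1; those of HAP8 and FLC held none.

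Over all genes with both marks, 4658 of 6118, or 76.1% (interval 75 to 77.2), had at least 1 base under both. The median shared length was 236 bp, close to the size of the smallest H3K27me3 region. At least 50% of the smaller mark's bases were shared in 55.7% of the genes and at least 90% in 25.4%. Counted by bases, 31.2% of the H3K27ac in these genes lay under H3K27me3, which covered 16% of all their bases, and 37.5% of the H3K27me3 lay under H3K27ac, which covered 19.2%. Both marks tend to lie near the start of genes, and how much of the overlap follows from that was not tested.

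The other 1460 genes with both marks, 23.9%, had them on separate stretches. H3K27ac came before H3K27me3 along the gene in 57.5% of these, H3K27me3 came before H3K27ac in 20.8%, and the marks alternated in 21.6%. The median gap between the nearest stretches was 302 bp, with quartiles of 116 and 755 bp, and 267 of the genes (18.3%) had a gap of over 1000 bp. AT1G27660, a bHLH gene (chr1:9621398-9626067), had the most bases with none shared: 7 H3K27me3 stretches summed to 3494 bp and 1 H3K27ac stretch of 233 bp lay between the last 2 of them, 45 bp from the nearest. In ABCB16, a transporter of the ABC family, 2315 bp of H3K27me3 lay before 703 bp of H3K27ac near the end of the gene. In MAPKKK7, a protein kinase gene, 1819 bp of H3K27me3 lay before 1024 bp of H3K27ac. The annotated genes AT2G34100 and AT2G34110 had ranks 2 and 3 in this order, directly after AT1G27660. They overlap each other, so they share bases and are not separate cases.

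GL2 belonged to the genes with separate stretches (chr1:30036956-30041440). Its H3K27ac lay at 755 to 987 bp and 3011 to 3189 bp after the start, and H3K27me3 lay in 4 stretches from 1623 bp on, before and after the second H3K27ac stretch. The nearest stretches were 136 bp apart, within coding sequence. The sequence of that gap is shown on the plus strand (TAIR10, chr1:30039800-30039995), with the last 30 bases of H3K27me3 before it and the first 30 bases of H3K27ac after it in capitals.
GL2: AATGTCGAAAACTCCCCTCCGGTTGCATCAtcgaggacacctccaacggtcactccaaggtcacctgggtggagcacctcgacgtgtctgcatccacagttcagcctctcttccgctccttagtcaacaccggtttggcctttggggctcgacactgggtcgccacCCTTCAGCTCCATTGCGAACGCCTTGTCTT

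The extremes of stretch length gave the opposite arrangements. PATL2, a membrane-trafficking protein with a SEC14 domain, had the longest H3K27ac stretch of any gene with both marks, 1572 bp, and its 723 bp of H3K27me3 came in 3 regions of the smallest size. UNE1 and PROT1, a proline transporter gene, had H3K27ac stretches of 1529 and 1504 bp that held all of their 455 and 241 bp of H3K27me3. MS1, a PHD-finger gene of pollen development, had the longest H3K27me3 stretch, 2037 bp, with 1 H3K27ac stretch of 282 bp inside it and another of 232 bp before it. The stretches of THA2, a threonine aldolase gene, NGA3, a B3-domain gene of leaf and style shape, and FMA, a bHLH gene of guard cell identity, were 2013, 2010 and 1937 bp. All of the H3K27ac of NGA3 and FMA, 428 and 591 bp, lay under H3K27me3.

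The marks began at different distances from the start. In genes with both marks the first H3K27ac base lay a median of 176 bp after the start and the first H3K27me3 base 374 bp after it, and H3K27ac began nearer the start in 67.9% of the 5978 genes where the positions differed. In genes with H3K27me3 only, the first H3K27me3 base lay at 133 bp, nearer the start than in genes with both. The first H3K27ac base of genes with H3K27ac only lay at 143 bp.

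The series asks how marks lie on either side of gene starts, and here the marks differed. In genes of at least 2000 bp, H3K27ac covered 51% of the bases in the 500 bp after the start and 10.1% of those in the 500 bp before it when alone, a ratio of 5.04. With H3K27me3 present these values were 47.1%, 8.2% and 5.74. H3K27me3 alone covered 36% after and 19.4% before the start, a ratio of 1.85. In genes with both marks it covered 25.8% after and 6.33% before, a ratio of 4.07. H3K27ac was highest in the bin centred 375 bp after the start in both classes, at 62.8% and 59.6% of the bases. H3K27me3 was highest at 525 bp when alone (40.3%) and at 475 bp beside H3K27ac (36%). The classes were chosen by bases from the start on, and a region that crosses the start adds to both sides, so neither the downstream nor the upstream values are independent of the rule and they are given as a description.

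**Figure D2:**
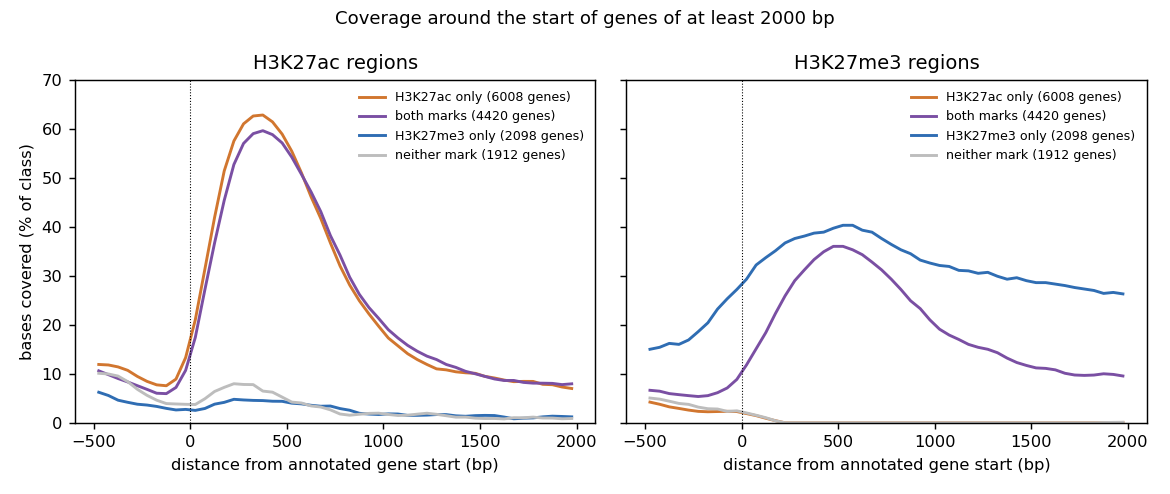
Share of bases (%) under H3K27ac regions (left) and H3K27me3 regions (right) in bins of 50 bp from 500 bp before to 2000 bp after the annotated start, for genes of at least 2000 bp in each class. H3K27ac rose from about the start in genes with H3K27ac only and with both marks, to 62.8% and 59.6%, and H3K27me3 covered 19.4% of the 500 bp before the start in genes with H3K27me3 only and 6.33% in genes with both.

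The 4 targets that the rule did not use differed in frequency between the classes. H3K4me3, H3K4me1 and H3 were more frequent on genes with H3K27ac, alone or with H3K27me3, than on genes with H3K27me3 only. H2A.Z went the other way, with smaller differences. H3K4me3, a mark of active gene starts, covered at least 200 bp of 25.7% of all genes. It did so in 37.7% of genes with H3K27ac only, 44.8% with both marks, 6.4% with H3K27me3 only and 6.56% with neither. H3K4me1, found in plants over the bodies of transcribed genes, was on 52.1% of all genes, and on 68.2%, 67.7%, 30.9% and 31.7% of the same classes. H2A.Z, on 38.2% of all genes, was on 39.6%, 43%, 48.5% and 23.3%, so it was most frequent with H3K27me3 only. Regions of histone H3, on 42.6% of all genes, were on 50%, 57.5%, 34.3% and 24.8%, so the control for nucleosomes also moved with H3K27ac, and its part in the other differences was not tested. Within genes from 1500 to 2500 bp the shares with H3K4me3 were 36.3% for H3K27ac only, 42.8% for both marks and 6.59% for H3K27me3 only. The shares with H3K4me1 at that length were 62.9%, 55.1% and 31.6%, and 46.3% for neither mark. For H3K4me1, both marks thus fell below H3K27ac only, and H3K27me3 only below neither mark, at similar length. The smallest H3K4me3 and H2A.Z regions were under 200 bp (189 and 183 bp), so a gene with a lone one was not counted.

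With H3K4me3 the difference between H3K27ac only and H3K27me3 only was 31.3 percentage points. It was 14.5 points when 500 bp of a target were needed and 9.74 when all regions shorter than 500 bp were dropped, settings that also leave few H3K4me3 regions. With H2A.Z it was -8.87 points, and between -15.8 and -3.15 over the settings tried. With only regions of at least 500 bp, H2A.Z was on 9.2% of genes with both marks and on 7.93% with H3K27me3 only. For these 2 classes that order was the reverse of the order at 200 bp.

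**Figure D3:**
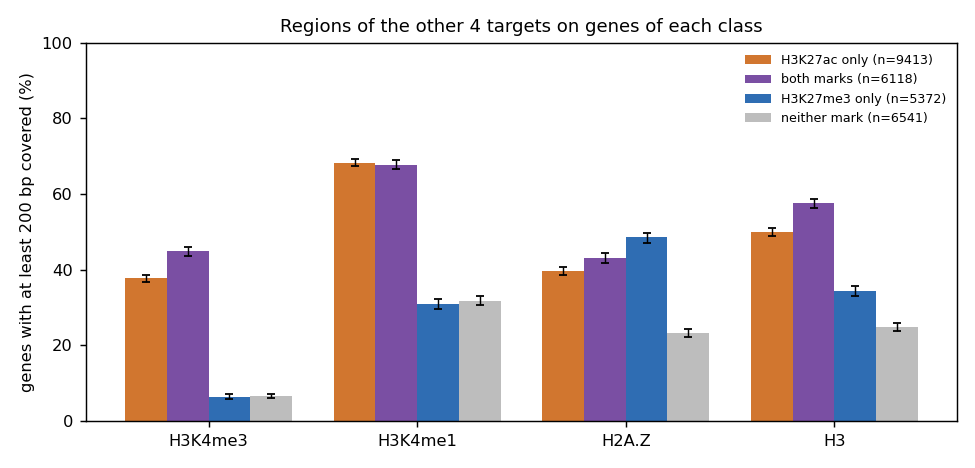
Share of genes (%) with at least 200 bp under regions of H3K4me3, H3K4me1, H2A.Z or H3, by class; lines are exact 95% binomial intervals, which cover counting error only. Over all lengths, genes with both marks were nearer to H3K27ac only than to H3K27me3 only for H3K4me3 (44.8%, 37.7% and 6.4%) and H3K4me1 (67.7%, 68.2% and 30.9%). Within 1500 to 2500 bp, H3K4me1 was on 55.1% of genes with both marks and 62.9% with H3K27ac only. Genes with H3K27me3 only were the most frequent with H2A.Z (48.5%).

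Within the genes with both marks, the shared bases were those with the most H3K4me3 and H2A.Z. Of the shared bases 36.8% lay under H3K4me3 regions, against 23.5% of the bases with H3K27ac and no H3K27me3, 8.82% of those with H3K27me3 and no H3K27ac, and 3% of those with neither. For H2A.Z the shares were 29%, 19.9%, 13.2% and 4.23%. Regions of histone H3 went the same way, with 18.1%, 13.8%, 6.26% and 5.72%. H3K4me1 did not: it covered 14.3% of the shared bases and 23% of the bases with neither. In genes with both marks of at least 2000 bp, H3K27ac and H2A.Z were highest in the bin centred 375 bp after the start. H3K27me3 and H3K4me3 were highest at 475 bp, and the part of distance from the start in these shares was not tested. Exons made up 73.9% of the shared bases and 70.8% of all bases of these genes.

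Genes with both marks were also split by their longest H3K27me3 region, a split made after the data were seen. In 2975 of them, 48.6%, every H3K27me3 region had the smallest size, and in 1067, 17.4%, at least 1 region was 500 bp or longer; the 1067 are 3.89% of all protein-coding genes. H3K4me3 was on 47.7% of the first group (interval 45.9 to 49.5) and 30.7% of the second (28 to 33.6). H2A.Z was on 36.5% (34.8 to 38.3) and 61.8% (58.8 to 64.7). The split itself bears on the position and extent of H3K27me3, so the next values are a description. H3K27ac began nearer the start in 79.5% and 38.2% of them. In the 500 bp before the start of genes of at least 1000 bp, H3K27me3 covered 3.41% of the bases in the first group and 18.7% in the second. Of the H3K27ac bases in genes with a long H3K27me3 region, 55.1% lay under H3K27me3, which covered 36.7% of all their bases. Genes with H3K27me3 only and such a region, 2266 in number, had H3K4me3 in 3.93% and H2A.Z in 54.6%, and 34.7% of the bases before their starts lay under H3K27me3. H3K4me3 was thus more frequent in genes with a long H3K27me3 region when H3K27ac was present, and the intervals (28 to 33.6 and 3.17 to 4.81) do not overlap. These groups also differed in median gene length, 2486 bp with H3K27ac and 1725 bp without. Regions of histone H3 were on 61% and 37.3% of them, and H3K4me1 on 58.5% and 26%. The part of length and of H3 in the difference was not tested.

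Functions were read from 43 gene families defined by words in the annotated product names, holding 5381 genes. H3K27me3 only was more frequent than among all genes (19.6%) in 25 families, H3K27ac only (34.3%) in 15 and both marks (22.3%) in 25. Families differ in gene length, which moves with the classes as given above.

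Families of basic cell functions had the most genes with H3K27ac only. Of 365 genes named as ribosomal proteins with no mention of an organelle, 60.3% had H3K27ac only, 6.03% H3K27me3 only and 15.6% both marks, although their median length, 1547 bp, was below that of all genes. AT2G39390, a ribosomal L29 family gene, had 1142 bp of H3K27ac in a gene of 1325 bp. Proteasome subunits had H3K27ac only in 51.1% of 45 genes and H3K27me3 only in 8.89%; RPN1B, a subunit of the regulatory particle, had 1250 bp of H3K27ac, and its copy RPN1A had both marks, with 396 bp of H3K27ac and 777 bp of H3K27me3. Pentatricopeptide repeat proteins, which act on RNA in organelles, had H3K27ac only in 50% of 262 genes, as did RAB GTPases, SNAREs and coat proteins of vesicle traffic in 50% of 148. Splicing factors (46.9% of 98), chaperones (47.2% of 250), aminoacyl-tRNA synthetases (48.4% of 64) and translation factors (45.2% of 93) were also above all genes. Where such genes had both marks, the length of H3K27me3 varied by family. Over all genes with both marks, 48.6% had smallest regions only and 17.4% had a region of at least 500 bp. Of 32 splicing genes with both, 27 had smallest regions only and 1 had a region of at least 500 bp, and of 57 ribosomal protein genes 34 and 2 did. Of 15 proteasome genes with both, 8 had smallest regions only and none had a long one. Among RAB, SNARE and coat protein genes 6 of 40 had a long region, and among aminoacyl-tRNA synthetases 2 of 11, which is near the share of all genes with both marks.

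The 5 families with the highest shares of H3K27me3 only were as follows. Terpene synthases and cyclases led with 69.6% of 46 genes (interval 54.2 to 82.3), 6.52% having H3K27ac only. GA1, the copalyl diphosphate synthase of gibberellin synthesis, had 2963 bp of H3K27me3 and no H3K27ac, whereas GA2, the next enzyme of the same pathway, had 583 bp of H3K27ac and no H3K27me3. UMAMIT amino acid transporters had H3K27me3 only in 57.1% of 49 genes, GDSL lipases in 51% of 98, pectin methylesterases and their inhibitors in 49.6% of 129, and class III peroxidases in 47.8% of 69. Cytochromes P450 had it in 36.3% of 248 genes; CYP707A2, an abscisic acid 8'-hydroxylase of seeds, had 2874 bp. UDP-glycosyltransferases, which also act in specialised metabolism, did not follow: 18% of 133 genes had H3K27me3 only and 34.6% had H3K27ac only, near all genes. Seed storage, LEA and oleosin genes had H3K27me3 only in 40.3% of 67, and CRU3, a seed cruciferin gene, held 1829 bp of H3K27me3 with its 239 bp of H3K27ac inside. F-box proteins, with 653 genes, had H3K27me3 only in 40.7%.

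Most transcription factor families were above all genes in H3K27me3 only, and several also in both marks. LBD proteins had H3K27me3 only in 45.7% of 35 genes and both marks in 8.57%. AP2/ERF proteins had 43% and 14% of 100; ANT, a regulator of organ growth, had 2047 bp of H3K27me3 and no H3K27ac. MYB proteins had 39% and 26.6% of 154, homeobox proteins 38.7% and 32.1% of 106, NAC proteins 38.1% and 22.9% of 105, and MADS-box proteins 36.9% and 16.4% of 122. KNAT1, a meristem homeobox gene, had 2899 bp of H3K27me3 and no H3K27ac. BEL1, a homeobox gene of ovule development, had both marks in near equal amounts, 1358 bp of H3K27ac and 1406 bp of H3K27me3, with 563 bp shared. NAC075, a regulator upstream of vascular genes, had 437 bp of H3K27ac and 3272 bp of H3K27me3. TCP proteins had both marks in 43.5% of 23 genes and WRKY proteins in 40.3% of 72. BRC1, the TCP gene that arrests axillary buds, was covered by H3K27me3 over all of its 2527 bp and held 1 smallest H3K27ac region, which kept it out of the genes with both marks. MYC2, the bHLH regulator of jasmonate responses, had 1596 bp of H3K27ac and no H3K27me3. It overlaps the annotated gene AT1G32630 over most of its length, which had 2234 bp of H3K27ac, so the same bases count for both genes.

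FLC (chr5:3173382-3179448), which represses flowering until winter cold silences it through H3K27me3, was a gene with both marks. It had 3773 bp of H3K27me3 in 7 stretches over a gene of 6067 bp, from its first base on, and 591 bp of H3K27ac in 3 stretches, of which 421 bp were shared. It had no H3K4me3 and 292 bp of H2A.Z. AGL20, better known as SOC1 and repressed by FLC, had 2738 bp of H3K27me3, and all of its 420 bp of H3K27ac were shared. A region of at least 500 bp of H3K27me3, found in 17.4% of all genes with both marks, was in 11 of 20 MADS-box, 15 of 36 bHLH, 15 of 41 MYB, 12 of 34 homeobox, 9 of 24 NAC, 9 of 29 WRKY, 5 of 14 AP2/ERF, 6 of 17 bZIP and 3 of 10 TCP genes with both. Among Aux/IAA and ARF genes it was in 1 of 10, and in 0 of 3 LBD genes.

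Several families of perception and defence had both marks more often than all genes (22.3%), though some of them hold long genes. Resistance genes of the TIR-NBS-LRR and CC-NBS-LRR types had both in 43.2% of 118 genes (interval 34.1 to 52.7) with a median length of 4506 bp, and 40 of these 51 genes shared at least 1 base. LAZ5, a TIR-type resistance gene, had 510 bp of H3K27ac and 3003 bp of H3K27me3. ADR1, a CC-type helper of immune receptors, had the reverse, 1490 bp of H3K27ac and a lone H3K27me3 region of 241 bp. Leucine-rich repeat receptor kinases, of median length 3812 bp, had both marks in 37.8% of 185 genes (interval 30.8 to 45.2) and H3K27ac only in 37.8%. Among all genes, both marks were on 32% from 3000 to under 4000 bp and on 34.5% from 4000 to under 6000 bp. The intervals of the leucine-rich repeat kinases and of the resistance genes included the share of genes of their length. Cysteine-rich receptor kinases had both in 24.4% of 41 genes, near all genes. Protein phosphatases 2C had both in 38.5% of 65 genes; PP2CA, a negative regulator of abscisic acid signalling, shared 645 bp of its 1397 bp of H3K27ac and 724 bp of H3K27me3. Transporters of the major facilitator, nitrate and oligopeptide families had both in 37.8% of 156 genes. Neither mark was most frequent among short genes: defensin-like proteins had neither in 79.5% of 220 genes with a median length of 557 bp, and SAUR proteins, small auxin-induced proteins, in 57.7% of 78.

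Of 47 core histone genes, 31.9% had H3K27ac only (34.3% of all genes), 31.9% both marks (22.3%), 12.8% H3K27me3 only (19.6%) and 23.4% neither (23.8%). The intervals of the first 3 shares included those of all genes. The family was short, with a median length of 955 bp. Among all genes of 500 to under 1000 bp, 16.9% had H3K27ac only, 5.48% both marks, 27.7% H3K27me3 only and 49.8% neither. Core histone genes thus had H3K27ac, alone or with H3K27me3, more often than genes of that length. AT4G40030, an H3.3 gene, had 811 bp of H3K27ac and 241 bp of H3K27me3. MGH3, the histone H3 variant of male gametes, had 848 bp of H3K27me3 and a lone H3K27ac region of 179 bp.

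**Figure D4:**
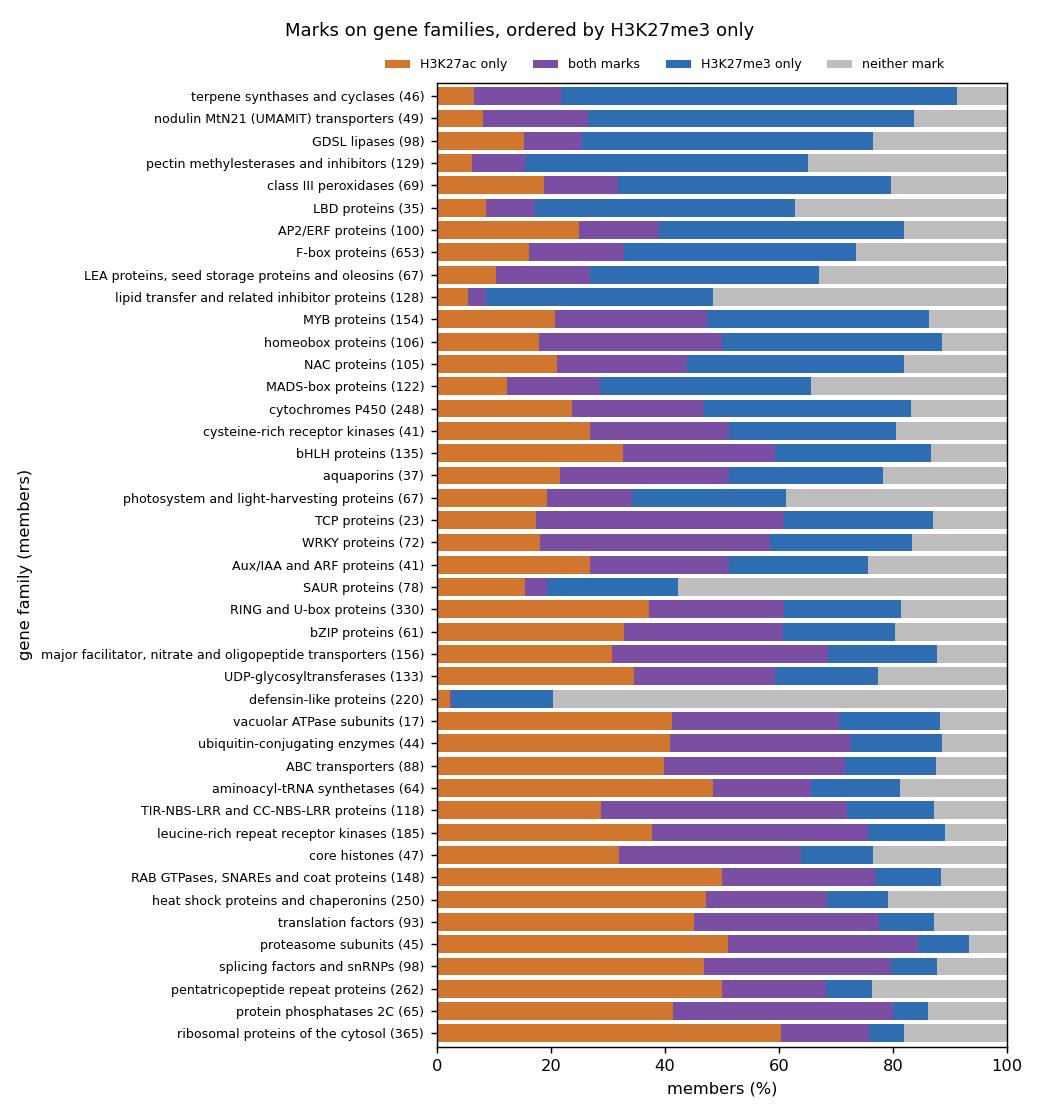
Share of the genes of each family (%) with H3K27ac only, both marks, H3K27me3 only and neither mark, for 43 families defined by product name, ordered by H3K27me3 only; numbers of genes are in parentheses. Terpene synthases stood at 69.6% H3K27me3 only and ribosomal proteins at 6.03%, while TCP and NBS-LRR genes had the highest shares with both marks, 43.5% and 43.2%.

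Short motifs near the start, which no rule here used, differed in part between the classes. In the 250 bp before to 50 bp after the start, site II (TGGGCC on either strand), a motif frequent in promoters of ribosomal protein and cell cycle genes, was in 19.7% of genes with H3K27ac only, 17.2% with both marks and 9.55% with H3K27me3 only, against 15.5% of all 27443 genes with a whole window. The letters of a TATA box (TATAAA on either strand) were in 50.2%, 51.9% and 57.3%, against 52.1%. These letters were counted at any place in the window. Base composition was not taken into account, so the shares are not frequencies of working TATA boxes. The telobox was in 6.19%, 5.46% and 7.6% of these windows, against 6.22% of all, and the GA repeat GAGAGAGA in 7.93%, 8.76% and 9.03%, against 8.38%. The G-box CACGTG, bound by bHLH and bZIP proteins, was in 8.2%, 8.89% and 7.34%, against 7.68%. In site II, both marks (interval 16.3 to 18.2) stood below H3K27ac only (18.9 to 20.6) and above all genes, and H3K27me3 only was below all genes. Genes with both marks and an H3K27me3 region of at least 500 bp had site II in 12.3% (10.4 to 14.4), also below all genes. For 1 gene of each of the single-mark classes, the 250 bases before the start of AT2G39390 (TAIR10, chr2:16451879-16452128, minus strand) and of AG (chr4:10382606-10382855, plus strand) are shown, with site II and TATA box letters in capitals. The former held 1 site II (read as GGCCCA) and 3 TATA box matches, and the latter held none of either, so for the TATA box this pair ran opposite to the shares of their classes.
AT2G39390: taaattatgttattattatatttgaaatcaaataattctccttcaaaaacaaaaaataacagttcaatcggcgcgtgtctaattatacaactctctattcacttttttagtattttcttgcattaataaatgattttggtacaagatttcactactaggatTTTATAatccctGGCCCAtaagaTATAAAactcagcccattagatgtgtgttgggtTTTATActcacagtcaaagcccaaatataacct
AG: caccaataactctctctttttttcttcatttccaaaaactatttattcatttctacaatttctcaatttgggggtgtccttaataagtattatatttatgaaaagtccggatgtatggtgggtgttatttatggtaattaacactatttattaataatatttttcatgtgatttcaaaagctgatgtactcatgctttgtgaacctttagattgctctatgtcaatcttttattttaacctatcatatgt

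Inside the genes with both marks, the telobox was denser where the marks lay. It started 415 times per Mb of shared bases, 339.7 times per Mb of H3K27ac without H3K27me3, 215 times per Mb of H3K27me3 without H3K27ac and 79.9 times per Mb of bases with neither. The GA repeat started 792, 819, 624 and 355 times per Mb in the same order, and GC content was 40.4%, 40.2%, 38.9% and 38.4%. The telobox was also denser under the mark in the single-mark classes. In genes with H3K27ac only it started 355 times per Mb of H3K27ac without H3K27me3 and 87.1 times per Mb of bases with neither. In genes with H3K27me3 only it started 221 times per Mb of H3K27me3 without H3K27ac and 119 times per Mb of bases with neither. Marked bases lie nearer the start than the rest, and the part of distance from the start in these densities was not tested.

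The number of genes with both marks was the value most dependent on how regions were used. It was 2816 when regions of each library's smallest size were left out, 797 when 500 bp of each mark were needed and 163 when all regions shorter than 500 bp were dropped. At least 1 base was shared by 72.7% of the 2816 genes, 94.1% of the 797 and 75.5% of the 163, against 76.1% of the 6118.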

How the data were processed

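The deposited data were lists of called regions for 6 targets, given by the authors as chromosome, start and end in base pairs, with no count, score or p-value. TAIR10 was the build, and HOMER, deepTools 2.0, SAMtools 0.1.19 and Bowtie2 the tools, per the submitters' processing notes; file names describe sorted, merged HOMER regions. Not given in the sources used here are the caller's settings, the control of each call and the depth, and the 2 inputs were not used.

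Regions on the 5 nuclear chromosomes were laid on genes of RefSeq TAIR10.1, whose nuclear coordinates are those of TAIR10. Mitochondrial regions, 2 of H3K27me3, 1 of H3K4me3 and 4 of H3, were left out. Bases of a gene under each target were counted from its annotated start to its end, and 200 bp marked it. The counting was checked on made-up data with known answers. Python 3.11.15, NumPy 2.4.6, SciPy 1.17.1 and pandas 2.3.3 were used. Exact binomial intervals cover counting error only. Alternatives changed the threshold, the regions and the genes used.

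Classes, gene lists, families and alternatives were chosen with earlier results of these data known. Named genes were those with the most bases of a mark in each class, with the most shared or separate bases, with the longest stretches, the 2 with the most bases per family, and the markers.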

Additional observations from a re-analysis of the deposited data

How the results depend on the processing

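Of 81 alternative values, 36 stayed within the interval of the reported value or within 1.5 times of a count, and 45 moved beyond it. For the share of H3K27ac under H3K27me3, the interval was taken over bases, which are not independent. It was so narrow that every alternative of that share counted as moved. Sign changes numbered 0, and only the differences for H3K4me3 and H2A.Z could change sign. No paired analysis was possible because each target had 1 library. With 1 bp marking a gene, median lengths were 2310 (H3K27ac only), 1560 (H3K27me3 only) and 2487 bp (both), sharing was 70.5%, H3K27ac under H3K27me3 30.8%, H3K27ac nearer the start 60.2%, and the differences of H3K27ac only minus H3K27me3 only 40.7 points for H3K4me3 and -6.69 for H2A.Z. With 500 bp these values were 2604, 1995 and 2861 bp, 94.1%, 46.3%, 60.7%, 14.5 and -12.5 points, with 797 genes of both marks. Without smallest regions there were 2816 genes with both marks. H3K27ac only then held 11670 genes, against 9413, and H3K27me3 only held 4312, against 5372. H3K27ac only had a median of 2433 bp, and the shares were 72.7%, 39.1% and 59.4%, with -11.1 points for H2A.Z. With only regions of at least 500 bp there were 3846 genes with H3K27ac only, 3051 with H3K27me3 only and 163 with both, of 2518, 1914 and 2891 bp; H3K27ac under H3K27me3 was 49%, H3K27ac nearer the start 62.7%, and the differences 9.74 and -3.15 points. Joining regions closer than 500 bp gave 33.5% of H3K27ac under H3K27me3. Genes that overlap no other gene numbered 6070 with H3K27ac only; H3K27me3 only had a median of 1676 bp, H3K27ac under H3K27me3 was 31.7% and H3K27ac nearer the start 66.4%. Genes of 1500 to 2500 bp numbered 3420, 1866 and 2114, with sharing of 79.1%, 33% of H3K27ac under H3K27me3, and differences of 29.7 and -15.8 points. Fewer genes or regions enter by construction in the settings that lower a count; the cause of the other moves was not tested. The unknown depth limits every count of genes and of covered bases.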

Other observations

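Genes of a class tended to lie beside each other on the chromosome. The next protein-coding gene had H3K27ac only after 40.7% of genes with H3K27ac only, against 34.3% of all genes. It had H3K27me3 only after 32.9% of genes with H3K27me3 only, against 19.6% of all genes, and both marks after 25.6% of genes with both, against 22.3%. Genes with H3K27me3 only were followed by genes with H3K27ac only in 25% of cases. Neighbours can be touched by the same region, and overlapping genes share bases, so this is a description of the map.

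The longest run of neighbouring genes in 1 class held 17 genes with H3K27me3 only, from AT4G22390 to AT4G22517 (chr4:11813313-11857362); AT4G22505, a lipid transfer and related inhibitor protein gene with 1151 bp of H3K27me3, lies in it. The longest runs of H3K27ac only held 10 genes, 1 of them from AT1G06515 to AT1G06590 (chr1:1990634-2024749), and the longest runs of both marks held 7, 1 of them from AT5G57580 to AT5G57640 (chr5:23314672-23345621). The classes were spread evenly over the chromosomes: both marks took between 20.8% of genes on chromosome 2 and 23.6% on chromosome 5, and H3K27me3 only between 19.3% on chromosome 5 and 20.3% on chromosome 4.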
